A study of Mus musculus with 4 samples.

Results

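DNA replication and S-phase genes encode the proteins that license and fire origins, copy DNA, make its nucleotides and open S phase. The group described here holds 38 genes chosen by name from that machinery, with earlier results of these data known. A gene was taken with every probe set (a set of oligonucleotides on the array that reads 1 transcript) whose platform annotation gives its symbol alone. By that rule 37 of the 38 had a probe set, out of 18193 genes that did. Chaf1a, a chromatin assembly subunit, was not analysed here. The 37 genes had 81 probe sets, 74 passed a filter on low signals, and all 37 genes were tested among 12598.

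The RNA came from cell lines of mouse liver and was read on 4 Affymetrix Mouse430_2 arrays, 1 for each line of resident liver stem cells (RLSC) and 2 for MMH-D3. MetE14/3 is an RLSC line grown from clone B2, of the embryonic liver (14 days post coitum) of a mouse transgenic for cyto-Met, a truncated form of the Met receptor. WTE14/1 is an RLSC line from a WT embryo liver of the same age; its title gives that name and its source name WT E14/3, and the title is used here. Both were picked as palmate colonies from primary cultures in serum, EGF, IGF-II and insulin, then grown in DMEM with 10% serum and frozen after about 50 generations. MMH-D3 is a line with hepatocyte features, for which the labels describe the primary culture of 14-day foetal and newborn livers and no later medium. The labels name no passage, confluence or harvest time for any array and give no culture or extract for either MMH-D3 array, so p-values cover no more than the spread over these arrays, which may be technical in MMH-D3. The labels give no genotype for MMH-D3.

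Before DNA is copied, the origin recognition complex, Cdc6 and Cdt1 load the Mcm helicase onto origins in G1 phase. At the G1/S boundary cyclin E with its kinase releases E2F factors from the Rb protein, and E2F switches on many genes of this group. Cdc45 and the GINS complex then activate the helicase, and the polymerases copy DNA while the Pcna clamp holds them on it. These genes are therefore widely read as a sign of dividing cells, and mature hepatocytes in adult liver, which rarely divide, show little of them.

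The E2F element is shown here because E2F is the textbook regulator of many of these genes. The RefSeq table of build GRCm38.p6 gave 36 promoters of 32 members, each from 250 bases before to 50 bases after an annotated start. No promoter of Prim2, Pole, Ccne2, Gins1, Mcm4 or Gins2 was used. The core was searched on both strands as TTTGGCGC, TTTCCCGC, TTTCGCGC or TTTGCCGC. It was found in 12 of 32 members (37.5%), against 2.26% of all 32851 promoters and 2.61% of 27025 genes with a promoter. A gene counted if any of its promoters held the core, and Lig1 and Mcm7 also had promoters without the core. Among the 10186 tested genes with a promoter, 4.62% held it. The matches numbered 18, from 165 bases before the start to 40 bases after it (first base of the match), with 10 before and 8 after. They are matches of letters and say nothing of binding. One window per gene is printed below in the direction of the gene, with the core in capitals and the strand of the gene in brackets.
Cdc6, chr11:98907997-98908036 (+): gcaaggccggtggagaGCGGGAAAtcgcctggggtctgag
Cdt1, chr8:122568031-122568064 (+): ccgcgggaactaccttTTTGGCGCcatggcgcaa
Lig1, chr7:13278836-13278875 (+): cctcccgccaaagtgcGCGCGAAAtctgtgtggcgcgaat
Mcm3, chr1:20820270-20820309 (-): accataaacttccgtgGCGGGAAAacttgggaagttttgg
Mcm5, chr8:75109344-75109383 (+): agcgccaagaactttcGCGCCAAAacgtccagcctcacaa
Mcm6, chr1:128359729-128359768 (-): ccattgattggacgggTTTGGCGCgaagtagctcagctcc
Mcm7, chr5:138171844-138171883 (-): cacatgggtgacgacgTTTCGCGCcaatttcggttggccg
Orc1, chr4:108579411-108579450 (+): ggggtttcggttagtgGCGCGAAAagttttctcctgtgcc
Pola1, chrX:93632270-93632309 (-): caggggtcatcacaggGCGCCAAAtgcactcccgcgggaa
Pold1, chr7:44548766-44548792 (-): ggcggcgtatcttgtgGCGGGAAAagc
Pole2, chr12:69228157-69228196 (-): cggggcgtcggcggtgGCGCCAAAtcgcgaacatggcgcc
Rfc3, chr5:151651185-151651224 (-): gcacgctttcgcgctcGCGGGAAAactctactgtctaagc

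Cores that begin with G read the motif on the opposite strand. In Mcm5 and in Mcm6 a pair of cores on opposite strands overlap each other, and in Mcm7 a core shares its last base with a CCAAT box. The promoters of Cdc6 and Mcm5 are printed whole. Cdc6 had the widest gap between the MMH-D3 arrays among the probe sets used, and the overlapping cores of Mcm5 stand upstream of several CCAAT boxes. Capitals mark the E2F core and the CCAAT box written in the direction of the gene.
Cdc6, chr11:98907901-98908200 (+): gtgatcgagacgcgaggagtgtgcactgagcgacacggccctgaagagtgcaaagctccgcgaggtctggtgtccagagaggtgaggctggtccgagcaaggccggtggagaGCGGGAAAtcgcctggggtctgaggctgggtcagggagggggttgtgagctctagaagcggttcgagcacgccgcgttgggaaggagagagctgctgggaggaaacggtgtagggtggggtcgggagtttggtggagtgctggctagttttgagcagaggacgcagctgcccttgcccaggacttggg
Mcm5, chr8:75109259-75109558 (+): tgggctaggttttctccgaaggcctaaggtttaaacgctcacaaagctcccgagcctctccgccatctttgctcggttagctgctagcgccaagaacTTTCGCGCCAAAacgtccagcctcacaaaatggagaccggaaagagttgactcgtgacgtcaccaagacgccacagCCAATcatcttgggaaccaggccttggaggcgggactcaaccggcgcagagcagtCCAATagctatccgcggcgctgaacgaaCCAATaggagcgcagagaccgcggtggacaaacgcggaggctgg

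Other elements were nearer to the rest of the genes. The CCAAT box, searched as those 5 letters on both strands, was in 18 of 32 members (56.2%), in 41.1% of genes and in 43.0% of the tested genes. The GC box GGGCGG was in 24 members (75%) and in 38.2% of genes, but in 67.2% of the tested genes. The CHR element, searched as TTTGAA or TTTAAA, was in 7 members (21.9%) and in 30.6% of genes, but in 22.5% of the tested genes, a share near that of the members.

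**Figure D1:**
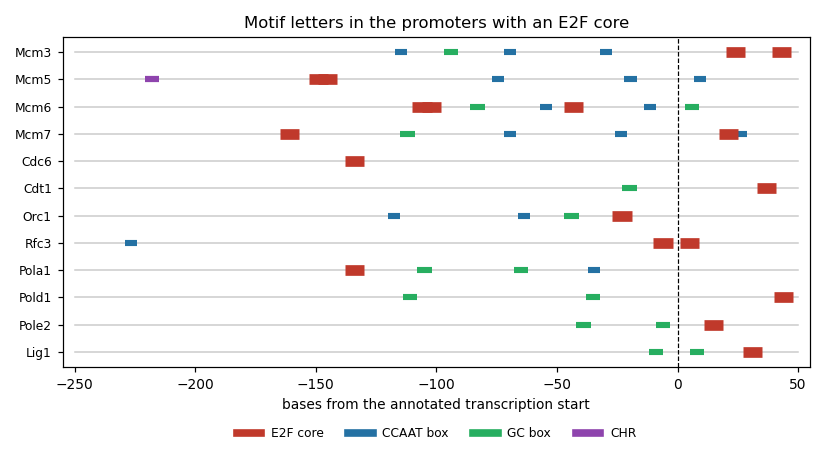
Position of motif letters in the 12 member promoters that hold an E2F core (horizontal axis, bases from the annotated transcription start, dashed line; 1 row per gene). Red bars mark E2F cores, blue bars CCAAT boxes, green bars GC boxes and purple bars CHR elements; the red bars stand on both sides of the start.

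The arrays themselves differed in one way that bears on what follows. The 24 poly-A control probe sets are made to read spiked RNA. They were 10.6-fold higher (median, range 5.75 to 26.1) on MetE14/3 and MMH-D3 array 1 than on WTE14/1 and MMH-D3 array 2. Their median signal was 28.6 on WTE14/1 and 30.7 on MMH-D3 array 2, against 28.0 and 23.0 over all probe sets but the controls. Whether every sample held the spike was not tested. Hybridization controls differed 0.878-fold. Each of these pairs holds 1 RLSC and 1 MMH-D3 array, and the labels name no batch. The ratio of 3' to 5' actin signal, a sign of RNA integrity, was 1.13 in MetE14/3, 1.13 in WTE14/1, 1.13 on MMH-D3 array 1 and 1.24 on array 2. The same ratio of Gapdh was 0.826 in MetE14/3, 0.745 in WTE14/1, 0.809 on MMH-D3 array 1 and 0.787 on array 2, which lay inside the range of the others. The mean signal without the outer 2% of probe sets at each end was 200.001 on every array.

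Across the group, MMH-D3 array 2 stood low while the other 3 arrays lay close together. The median member signal was 812 in MetE14/3, 732 in WTE14/1, 920 on MMH-D3 array 1 and 182 on MMH-D3 array 2. Array 2 was the lowest of the 4 in 36 of 37 members (97.3%), against 31.8% of all genes tested. Each of the other 3 arrays was at least 2-fold above it in 35 members, against 6.98% of genes. The exceptions were Prim2, a primase subunit, and Tyms, thymidylate synthase, whose probe sets were all dim (37.8 at most on the probe set used). Signals are the deposited values, while differences and folds are on the quantile-normalized log2(signal + 4) scale, which understates changes of dim probe sets.

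**Figure D2:**
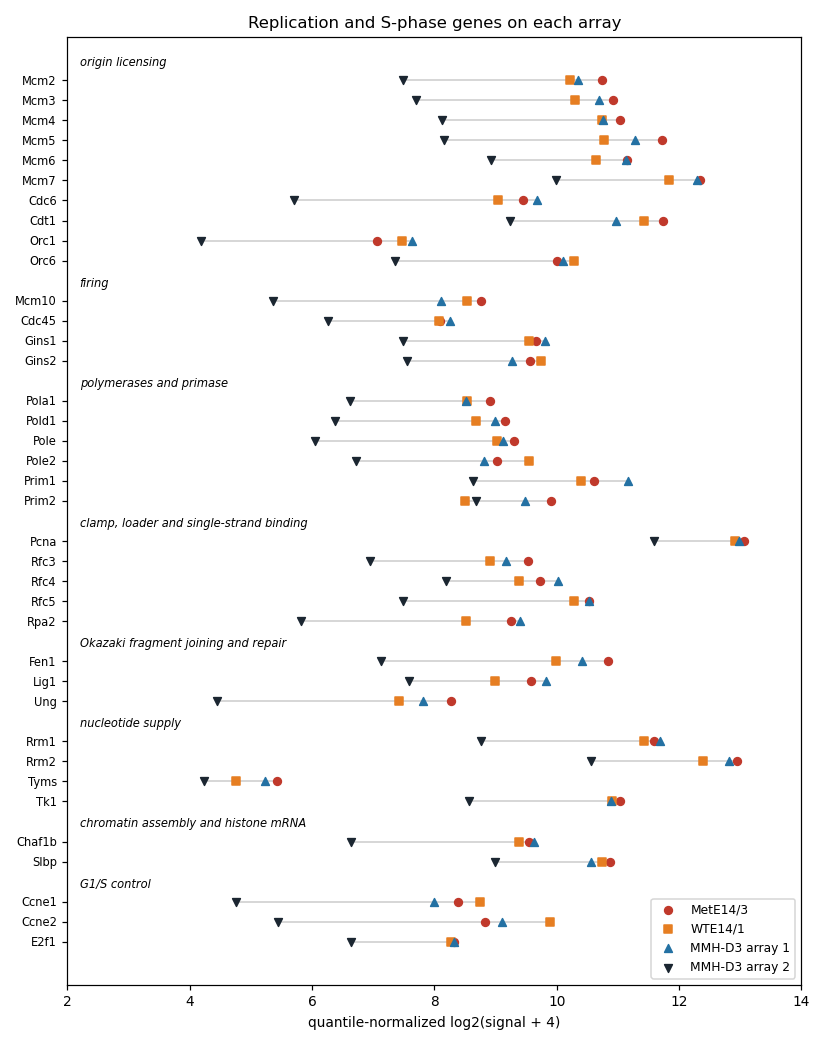
Quantile-normalized log2(signal + 4) of each of the 37 tested members (rows, grouped by role) on MetE14/3 (red circles), WTE14/1 (orange squares), MMH-D3 array 1 (blue triangles) and MMH-D3 array 2 (black inverted triangles), with grey lines spanning the 4 values. The black triangle is the leftmost point in 36 rows; in Prim2 WTE14/1 is.

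The design asks how RLSC differ from MMH-D3. All 37 members had a positive difference, RLSC minus MMH-D3, with a median of 1.27 on the log2 scale (2.41-fold) against 0.03 over all genes tested. None passed limma's test at a Benjamini-Hochberg adjusted p under 0.05 over all genes (0 of 37, against 0.913% of genes, 50 higher and 65 lower). The smallest adjusted p from limma was 0.372, for Cdt1, which was also the only member at an unadjusted p under 0.05 (0.0420), where 12.4% of all genes stood. Over all genes 52.0% of differences were positive.

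The spread within MMH-D3 set the errors. The gap between the MMH-D3 arrays was wider than that between the RLSC lines in 36 members (97.3%), against 55.6% of genes, although the RLSC arrays are different lines. On the normalized scale both RLSC arrays were above both MMH-D3 arrays in 8 members (21.6%), against 20.8% of genes, a share near the background. These were Mcm10, Cdt1, Gins2, Pola1, Pole2, Tk1, Slbp and Ccne1, and with the arrays scaled to a common median the count was 2. Both were below in 0 members, against 21.4% of genes. The members' median difference was -0.04 for the RLSC mean minus MMH-D3 array 1, and 2.54 for the RLSC mean minus array 2. MMH-D3 array 1 was within 2-fold of the RLSC mean in all 37 members and in 79.4% of genes. The shift of the group thus rested on 1 array: without MMH-D3 array 2 the median RLSC minus MMH-D3 difference was -0.03, and 20 of the 37 differences were negative.

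**Figure D3:**
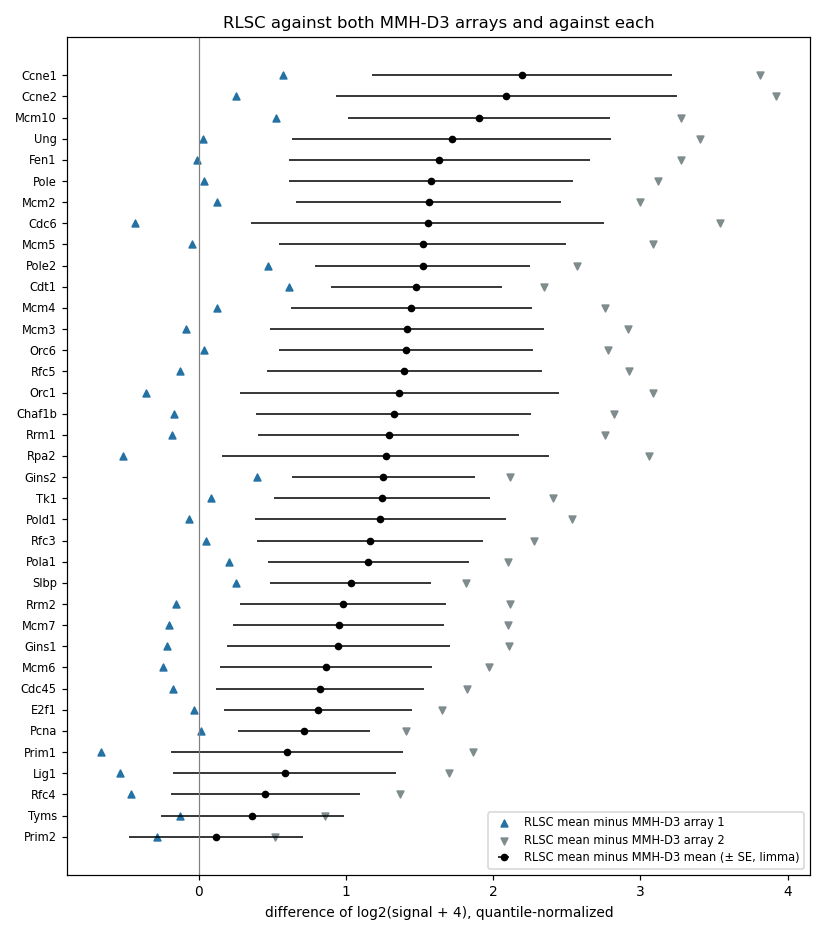
Difference of each member on the log2 scale (horizontal axis): black points are RLSC minus MMH-D3 with the limma standard error, blue triangles the RLSC mean minus MMH-D3 array 1, and grey inverted triangles the RLSC mean minus MMH-D3 array 2. Blue triangles lie between -0.66 and 0.61, around 0, while grey ones lie between 0.52 and 3.92.

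All 10 origin licensing genes were lowest on MMH-D3 array 2. Mcm7, a subunit of the replicative helicase, gave a signal of 5058 in MetE14/3 and of 3542 in WTE14/1, against 5273 on MMH-D3 array 1 and 1005 on array 2. By deposited signal MMH-D3 array 1 was the highest and array 2 the lowest, so the groups overlapped, and the difference was 0.95 ± 0.72 (SE; limma adjusted p = 0.699). Mcm2, another helicase subunit, had 1707 in MetE14/3 and 1138 in WTE14/1, against 1374 on MMH-D3 array 1 and 182 on array 2, with a difference of 1.56 ± 0.90 (SE; limma adjusted p = 0.584).

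Cdc6, the loader that brings the helicase to the origin complex, had 704 in MetE14/3 and 529 in WTE14/1, against 825 on MMH-D3 array 1 and 50.9 on array 2. Its MMH-D3 arrays were 15.7-fold apart (3.97 on the log2 scale), the widest gap among the probe sets used. Probe sets that were not used had wider gaps in Ccne1 (4.36) and Mcm5 (4.06). In Cdc6 MMH-D3 array 1 was above both RLSC lines. Cdc6 averaged 617 ± 124 over the RLSC arrays and 438 ± 547 over the MMH-D3 arrays (SD, n = 2 each). Cdt1, which works with Cdc6, had 3346 in MetE14/3 and 2610 in WTE14/1, against 2126 on MMH-D3 array 1 and 602 on array 2. On this probe set the groups did not overlap, with a difference of 1.48 ± 0.58 (SE). A second bright probe set of Cdt1 had 1136 in MetE14/3 and 1007 in WTE14/1, against 1084 on MMH-D3 array 1 and 244 on array 2. There WTE14/1 was below MMH-D3 array 1, so the groups overlapped, and the difference was 1.12. The promoter core of Cdt1 lies 33 bases after the start. Orc1, the largest origin recognition subunit, had 130 in MetE14/3 and 188 in WTE14/1, against 174 on MMH-D3 array 1 and 15.2 on array 2. By deposited signal its RLSC lines lay on both sides of MMH-D3 array 1; on the normalized scale MMH-D3 array 1 was the highest.

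The remaining licensing genes, Orc6 and the helicase subunits Mcm3, Mcm4, Mcm5 and Mcm6, had differences of 0.86 to 1.52. Mcm5 had 3306 in MetE14/3 and 1672 in WTE14/1, against 2703 on MMH-D3 array 1 and 288 on array 2. MetE14/3 was the highest and WTE14/1 below MMH-D3 array 1. Over the 10 licensing genes the median difference between MMH-D3 arrays 1 and 2 was 2.81, and the lowest was 1.73, in Cdt1.

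The firing factors had a median difference between MMH-D3 arrays 1 and 2 of 2.16. Gins1, of the complex that activates the helicase, had 812 in MetE14/3 and 732 in WTE14/1, against 920 on MMH-D3 array 1 and 183 on array 2. Mcm10, which takes part in helicase activation, had 431 in MetE14/3 and 378 in WTE14/1, against 252 on MMH-D3 array 1 and 39.3 on array 2. Its groups did not overlap on this probe set, with a difference of 1.90 ± 0.89 (SE; limma adjusted p = 0.472). Cdc45, the helicase cofactor, had 273 in MetE14/3 and 281 in WTE14/1, against 282 on MMH-D3 array 1 and 76.9 on array 2. The 3 higher arrays were nearly level. A dim second probe set of Cdc45 (9.3 on MMH-D3 array 1 and 17.6 on array 2) had the opposite sign between the MMH-D3 arrays. Gins2, a partner of Gins1, differed by 1.25 ± 0.62 (SE).

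Among the polymerase genes, Prim2 was the exception of the group. Prim1, the catalytic primase subunit that makes RNA primers, had 1556 in MetE14/3 and 1277 in WTE14/1, against 2453 on MMH-D3 array 1 and 399 on array 2. MMH-D3 array 1 was the highest. Pole, the catalytic subunit of the leading-strand polymerase, had 636 in MetE14/3 and 524 in WTE14/1, against 542 on MMH-D3 array 1 and 65.6 on array 2. Its difference was 1.58 ± 0.96 (SE; limma adjusted p = 0.614).

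Prim2, the large primase subunit that pairs with Prim1, had 954 in MetE14/3 and 369 in WTE14/1, against 711 on MMH-D3 array 1 and 411 on array 2. WTE14/1, not MMH-D3 array 2, was the lowest array, and MetE14/3 was above both MMH-D3 arrays. Its second bright probe set had 975 in MetE14/3 and 293 in WTE14/1, against 618 on MMH-D3 array 1 and 339 on array 2, the same order. Another, dim probe set (19.5 at most) gave a negative RLSC minus MMH-D3 difference. Pola1, the catalytic subunit that extends primers, Pold1, that of the lagging-strand polymerase, and Pole2, an accessory subunit of the Pole enzyme, had differences of 1.15, 1.23 and 1.52.

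The clamp and loader genes gave smaller and larger gaps by member. Pcna, the sliding clamp that holds polymerases on DNA, had 7797 in MetE14/3 and 8102 in WTE14/1, against 8136 on MMH-D3 array 1 and 2993 on array 2. Its MMH-D3 arrays were 2.63-fold apart, below the group's median fold of 5.76. Rpa2, a subunit of the protein that coats unwound DNA, had 616 in MetE14/3 and 372 in WTE14/1, against 668 on MMH-D3 array 1 and 55.9 on array 2, and its MMH-D3 arrays were 11.9-fold apart. Rfc5, a subunit of the clamp loader, had 1476 in MetE14/3 and 1182 in WTE14/1, against 1560 on MMH-D3 array 1 and 182 on array 2. The loader subunits Rfc3 and Rfc4 had differences of 1.16 and 0.45, RLSC minus MMH-D3.

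The genes of Okazaki fragment processing and repair had a median difference between MMH-D3 arrays 1 and 2 of 3.29. Fen1, the nuclease that trims the flap of each fragment, had 1825 in MetE14/3 and 976 in WTE14/1, against 1454 on MMH-D3 array 1 and 144 on array 2. Ung, which removes uracil from DNA, had 308 in MetE14/3 and 182 in WTE14/1, against 201 on MMH-D3 array 1 and 19.2 on array 2. In both, MetE14/3 was the highest and WTE14/1 below MMH-D3 array 1. Lig1, the ligase that joins fragments, differed by 0.58 ± 0.76 (SE; limma adjusted p = 0.85).

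The nucleotide supply genes include both subunits of ribonucleotide reductase, which makes deoxynucleotides. Rrm2, its S-phase subunit, had 7280 in MetE14/3 and 5302 in WTE14/1, against 7518 on MMH-D3 array 1 and 1469 on array 2. Rrm1, its large subunit, had 3076 in MetE14/3 and 2636 in WTE14/1, against 3564 on MMH-D3 array 1 and 433 on array 2. In both genes MMH-D3 array 1 had the highest deposited signal. Tk1, the thymidine kinase of dividing cells, had 2111 in MetE14/3 and 1821 in WTE14/1, against 2017 on MMH-D3 array 1 and 382 on array 2. Its groups overlapped by deposited signal and not on the normalized scale, where the difference was 1.24 ± 0.73 (SE). Tyms had 37.8 in MetE14/3 and 29.9 in WTE14/1, against 25.7 on MMH-D3 array 1 and 16.0 on array 2. Its 4 probe sets were dim, and a probe set that the annotation gives to more than this gene was not used.

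In chromatin assembly, Chaf1b, a subunit of the complex that places histones on new DNA, had 753 in MetE14/3 and 656 in WTE14/1, against 794 on MMH-D3 array 1 and 101 on array 2. Slbp, which binds the stem-loop of histone mRNA, had 1884 in MetE14/3 and 1641 in WTE14/1, against 1591 on MMH-D3 array 1 and 509 on array 2. The Slbp groups did not overlap on this probe set, with a difference of 1.03 ± 0.55 (SE; limma adjusted p = 0.541). For both genes a dim second probe set (38.5 at most in Chaf1b, 24.4 in Slbp) gave a difference of the opposite sign.

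Of the G1/S control genes, both cyclins E had the largest RLSC minus MMH-D3 differences of the group, while E2f1 was below its median. Ccne1, a cyclin E that opens S phase, had 331 in MetE14/3 and 435 in WTE14/1, against 230 on MMH-D3 array 1 and 24.6 on array 2. Its difference of 2.19 ± 1.02 (SE; limma adjusted p = 0.469) was the largest of the group, and its groups did not overlap. Ccne2, the other cyclin E, had 453 in MetE14/3 and 919 in WTE14/1, against 533 on MMH-D3 array 1 and 41.4 on array 2, with a difference of 2.09 ± 1.16 (SE). WTE14/1 was the highest and MetE14/3 below MMH-D3 array 1.

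E2f1, a transcription factor that activates S-phase genes, had 316 in MetE14/3 and 319 in WTE14/1, against 297 on MMH-D3 array 1 and 100.5 on array 2. The 3 higher arrays were within a narrow range, and the RLSC minus MMH-D3 difference was 0.81 ± 0.64 (SE). A dim probe set of E2f1 (34.4 at most) had the opposite sign, and a brighter second one had the same sign.

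Probe sets of 1 gene mostly gave the same picture. Of the 74 that passed the filter, 67 had MMH-D3 array 2 lowest, and 64 were at least 2-fold higher on MMH-D3 array 1 than on array 2. Among the 26 members with several probe sets past the filter, the sign of RLSC minus MMH-D3 differed between probe sets in 4 (Chaf1b, E2f1, Prim2 and Slbp). The sign between the MMH-D3 arrays differed in 3 (Cdc45, E2f1 and Prim2).

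Set against each other within the pairs of arrays with like poly-A controls, the lines gave unlike results. MetE14/3 minus MMH-D3 array 1 had a median of 0.15 over the members (-0.03 over all genes) and a range of -0.57 to 0.77. No member was 2-fold apart there (0 of 37), against 20.4% of genes. WTE14/1 minus MMH-D3 array 2 had a median of 2.34 (0.06 over all genes), and 35 members (94.6%) were at least 2-fold higher in WTE14/1, against 16.4% of genes. With 1 array on each side neither comparison has a test, and the difference between them was not tested.

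**Figure D4:**
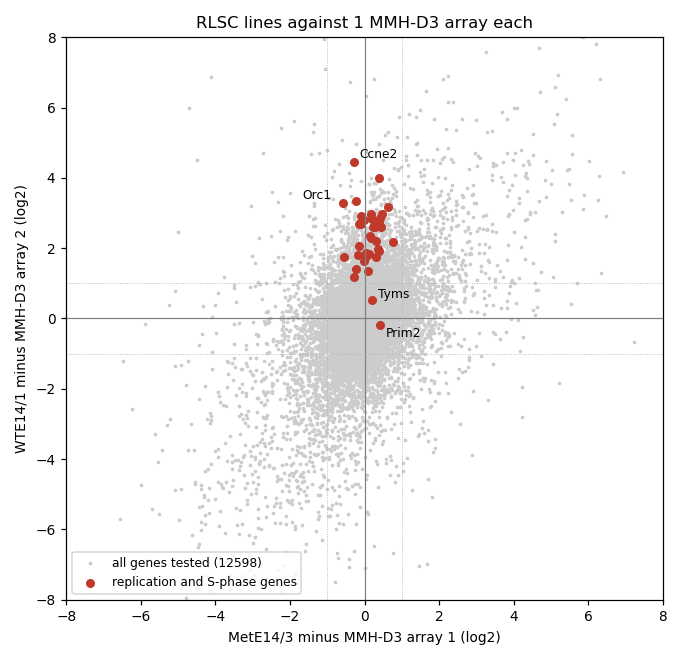
Log2 difference MetE14/3 minus MMH-D3 array 1 (horizontal axis) against WTE14/1 minus MMH-D3 array 2 (vertical axis) for all 12598 genes tested (grey) and the 37 members (red), with dotted lines at 2-fold; 36 genes lie outside the axes. Members stand within the dotted lines across and above the upper line in 35 of 37 cases, with Tyms and Prim2 below it.

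Between the arrays of MMH-D3, 35 members (94.6%) were at least 2-fold higher on array 1 than on array 2, against 12.8% of all genes. The median difference was 2.53 (5.76-fold), against 0.00 over all genes. It ranged from 0.80 in Prim2 to 3.97 in Cdc6. This comparison and that of WTE14/1 share MMH-D3 array 2. Whether array 2 comes from another culture, another state of the cells or another handling of the array cannot be told apart from the labels. In RNA from a whole culture, fewer dividing cells and less of each transcript per cell cannot be told apart.

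Other measurements also differed between the MMH-D3 arrays. The summed signal of 7 hepatocyte markers was 307 in MetE14/3, 79.7 in WTE14/1, 4015 on MMH-D3 array 1 and 8945 on MMH-D3 array 2. Apoa1, an apolipoprotein of hepatocytes, had 2.2 in MetE14/3 and 2.42 in WTE14/1, against 20.9 on MMH-D3 array 1 and 2002 on array 2. Alb, albumin, had 1.7 in MetE14/3 and 2.91 in WTE14/1, against 44.7 on MMH-D3 array 1 and 440 on array 2. The hepatocyte enzymes Cps1 and Tat were at 24.5 or less on every array, also in MMH-D3. Apob had 2879 on MMH-D3 array 1 and 4647 on array 2, Hnf4a 1049 and 1687, and Ttr 6.7 and 160. Cps1, with 10.9 and 7.27, and Tat, with 4.1 and 1.14, went the other way. Between the MMH-D3 arrays the summed hepatocyte signal was thus higher where replication genes were lower. Between MMH-D3 array 1 and the RLSC lines this order did not hold, as array 1 had the higher sum. Its median member signal, 920, was also the highest, against 812 in MetE14/3 and 732 in WTE14/1. Summed markers were 15491 to 25895 in RLSC and 42561 to 51677 in MMH-D3 for epithelial cells, and 20967 to 36215 in RLSC and 14855 to 15504 in MMH-D3 for mesenchymal cells. Erythroid markers (2 of 4 measured) summed to 20.1 or less, haematopoietic ones to 128 or less and endothelial ones to 69.4 or less. The part of these markers, of the actin ratio and of the poly-A controls in the gap was not tested.

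Between the RLSC lines the members were near level. MetE14/3 minus WTE14/1 had a median of 0.29 (0.00 over all genes) and was positive in 31 of 37 members, against 50% of genes. At least 2-fold differences were found in 2 members (5.41%), against 19.6% of genes. They were Prim2, higher in MetE14/3 by 1.40 on the log2 scale, and Ccne2, with a difference of -1.07. Genotype, clone and pair of arrays cannot be told apart here. With the arrays scaled to a common median in place of quantile normalization, the median was 0.83 and 11 members were 2-fold apart, while the median over all genes moved to 0.38.

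Other genes of the pathway, from lists written with earlier results of these data known, ran from like the members to unlike them. None of any list passed limma's threshold in either direction. Of 52 further replication genes, 49 were tested, and MMH-D3 array 2 was lowest in 43 of them (31.8% of all genes). In 38 (12.8% of all genes) the signal was at least 2-fold higher on MMH-D3 array 1 than on array 2, with a median difference of 1.60. Uhrf1, which guides maintenance DNA methylation at the fork, had the largest RLSC minus MMH-D3 difference, 1.97 ± 1.26 (SE). It had 1958 in MetE14/3 and 1298 in WTE14/1, against 1897 on MMH-D3 array 1 and 96.5 on array 2. Recql4, a helicase, had the largest negative one, -0.57 ± 0.48 (SE).

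The mitosis list was close to the members. All 24 tested genes had MMH-D3 array 2 lowest (31.8% of all genes) and were at least 2-fold higher on MMH-D3 array 1 (12.8% of all genes), with a median of 2.13. Nuf2, a kinetochore protein, had the largest RLSC minus MMH-D3 difference, 1.76 ± 0.77 (SE). Of the 14 checkpoint genes, 13 had MMH-D3 array 2 lowest (31.8% of all genes) and 8 were at least 2-fold higher on array 1 (12.8% of all genes), with a median of 1.10. Chek1, a checkpoint kinase, had the largest difference, 1.01 ± 0.80 (SE). No tested mitosis or checkpoint gene had a negative RLSC minus MMH-D3 difference; the smallest were 0.10 in Ccnb2, a mitotic cyclin, and 0.09 in Rad17, a checkpoint clamp loader subunit.

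The regulators upstream were mixed. Of 22 G1/S regulators, 14 had MMH-D3 array 2 lowest (31.8% of all genes), 10 were at least 2-fold higher on array 1 (12.8% of all genes) and 1 was at least 2-fold lower (13.5% of all genes), with a median of 0.78. The lower one was Rb1, the retinoblastoma protein that holds E2F, named after its values were seen, with 513 in MetE14/3 and 361 in WTE14/1, against 270 on MMH-D3 array 1 and 755 on array 2. E2f7, a repressor of the E2F family, had the largest positive RLSC minus MMH-D3 difference, 1.81 ± 1.09 (SE). Mycn, a growth-promoting transcription factor, had the largest negative one, -3.09 ± 0.70 (SE; limma adjusted p = 0.131). Its signals were dim: 0.7 in MetE14/3 and 8.85 in WTE14/1, against 31.2 on MMH-D3 array 1 and 86.0 on array 2. Both RLSC signals lay under the filter signal of 11.7.

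Of 12 tested CDK inhibitors, D cyclins and p53 pathway genes, 4 had MMH-D3 array 2 lowest, a share near the 31.8% of all genes, and the median difference between the MMH-D3 arrays was -0.20. Only Cdkn2c was at least 2-fold higher on array 1, while Ccnd2 and Ccng2 were at least 2-fold lower (12.8% and 13.5% of all genes). These 3 were named after their values were seen. Cdkn2b, an inhibitor of the cyclin D kinases, had 14.4 in MetE14/3 and 5.23 in WTE14/1, against 121 on MMH-D3 array 1 and 188 on array 2. Its RLSC minus MMH-D3 difference was -3.68 ± 0.63 (SE; limma adjusted p = 0.0648). Cdkn1b, an inhibitor of cyclin E kinase, had the largest positive one, 1.12 ± 0.42 (SE; limma adjusted p = 0.354).

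**Figure D5:**
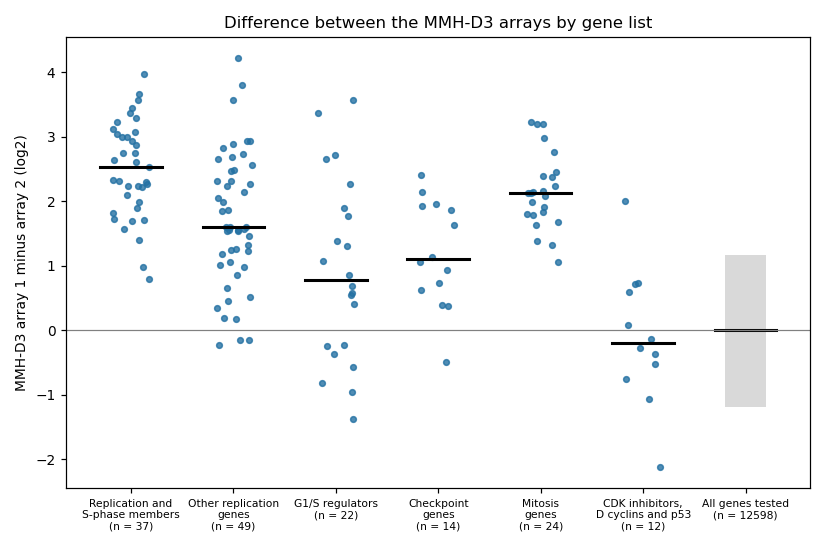
Log2 difference MMH-D3 array 1 minus array 2 (vertical axis) for the members, the 5 pathway lists and all genes tested (columns): points are genes, thick lines medians, and the grey bar spans the 10th to 90th percentile of all genes. The medians are 2.53 in the members, 2.13 in mitosis genes, 1.60 in other replication genes, 1.10 in checkpoint genes, 0.78 in G1/S regulators, -0.20 in CDK inhibitors, D cyclins and p53 genes, and 0.00 over all genes.

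The gap between the MMH-D3 arrays was also set beside the E2F letters printed above. Its median was 2.27 in the 12 members with a core in the promoter and 2.75 in the 19 tested members with a promoter and no core. Among tested genes outside the group, 459 held the core, with a median of 0.25, and 20.9% of them were at least 2-fold higher on MMH-D3 array 1. Over all 10186 tested genes with a promoter the median was 0.016 and the share 12.8%. Cdc6 and Cdt1, both with 1 core, had gaps of 3.97 and 1.73. No test was made of these shares.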

How the data were processed

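Per the submitters' processing notes, GCOS (software for Affymetrix arrays) made the deposited values. Per the file headers and the values, they are linear signal intensities per probe set, 1 column per array; the sources used here give no version, algorithm or scaling target. The arrays held 45101 probe sets. The 64 controls were left out of tests, and 34945 of the others had 1 symbol in the platform annotation, 932 several and 9160 none. Values entered as log2(value + 4) and were quantile normalized. Probe sets whose mean on this log2 scale lay under the 40th percentile were dropped, a cutoff equal to a signal of 11.7. The probe set with the highest mean on the same scale stood for its gene. RLSC and MMH-D3 were compared by a two-sided test in limma 3.58.1 (R 4.3.3; lmFit and eBayes with trend), and p-values were adjusted by Benjamini-Hochberg over 12598 genes, with a threshold of 0.05. The fit had 2 residual and 4.24 prior degrees of freedom. Comparisons of single arrays have no test and count members at least 2-fold apart.

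The members, the lists and the marker genes were chosen with earlier results of these data known. Members were named by role. In each role full values were given for the member with the highest mean signal, the largest RLSC minus MMH-D3 difference and the widest gap between the MMH-D3 arrays, and for members whose probe sets disagreed. Values of Cdt1, Orc1, Mcm5, Tk1 and Tyms were added after they had been seen. Each list is named by its largest positive and negative difference. Promoters came from RefSeq (GRCm38.p6). The number of arrays limits the precision. Alternatives changed the scaling, pseudocount, filter, probe set rule, variance model, array pair and the arrays included.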

Additional observations from a re-analysis of the deposited data

Results flagged for a closer look

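Prim2, the large primase subunit, was the only member in which the RLSC lines lay on opposite sides of both MMH-D3 arrays. MetE14/3 was above both and WTE14/1 below both, and MetE14/3 was higher than WTE14/1 by 1.40 on the log2 scale. A second bright probe set gave 1.78. The difference between the lines was not tested, since each was measured on 1 array.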

How the results depend on the processing

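No member passed the threshold under any alternative; the lowest limma adjusted p of a member was 0.0743. The count of all genes past it was 191 (65 higher and 126 lower) with arrays scaled to a common median, 9 without a filter on low values, and 0 to 206 when 1 array was left out: 0 without either MMH-D3 array, 27 without WTE14/1 and 206 without MetE14/3. In those fits a lone array is assumed to vary like the other group. The members' median RLSC minus MMH-D3 difference was -0.033 to 2.35 with 1 array left out, the lowest without MMH-D3 array 2 and the highest without array 1; with the pair of arrays as a block it stayed 1.27 with 0 members and 164 genes past the threshold. Of 480 differences of single members under alternatives, 458 kept their sign and 22 did not. Prim2 was -0.11 with a common median. The probe set that stood for a gene was picked again in each fit. For Pold1 it changed without MetE14/3 and without MMH-D3 array 1, so its range mixes probe sets. Other members may have changed too. With all 4 arrays Tyms had an RLSC mean minus MMH-D3 array 1 of -0.13, yet its range did not cross 0. With 1 array left out, the ranges that crossed 0 were Prim2 -0.58 to 0.84, Mcm3 -0.086 to 2.84, Mcm5 -0.045 to 3.02, Mcm6 -0.24 to 1.93, Mcm7 -0.20 to 2.09, Rrm1 -0.18 to 2.71, Rrm2 -0.15 to 2.13, Cdc6 -0.43 to 3.44, Cdc45 -0.17 to 1.76, Gins1 -0.21 to 2.05, Orc1 -0.37 to 3.07, Rfc4 -0.46 to 1.33, Rfc5 -0.13 to 2.84, Pold1 -0.069 to 1.64, Prim1 -0.66 to 1.81, Rpa2 -0.52 to 2.96, Fen1 -0.012 to 3.19, Lig1 -0.54 to 1.65, Chaf1b -0.17 to 2.74 and E2f1 -0.033 to 1.61, each lowest without MMH-D3 array 2 except Prim2 (without MetE14/3).

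Scaling to a common median moved the median of all genes by up to 0.38 between single arrays. There 2 members had both RLSC lines above both MMH-D3 arrays, 11 were 2-fold apart between MetE14/3 and WTE14/1, and the median of MetE14/3 minus MMH-D3 array 1 was -0.12, against -0.15 over all genes. In counts added after seeing the data, across these alternatives, MMH-D3 array 2 was lowest in 35 to 37 members, and 34 to 36 were at least 2-fold higher on MMH-D3 array 1 than on array 2. At the 60th percentile filter Tyms was not tested. The labels share no replicate numbers across groups, so the pairs by poly-A control level were the blocks fitted. Signals of Tyms, 37.8 at most on the probe set used, lie near the filter of 11.7.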
